A study of Arabidopsis thaliana with 6 samples.

Results

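Transcript levels of the nuclear genes that encode the light-harvesting antennae and the subunits of both photosystems were examined in germinated seeds of Arabidopsis thaliana, accession Col-0. The set was defined by name as 42 loci. It comprised 6 LHCA and 14 LHCB antenna genes, 12 photosystem I genes (PSAD1 to PSAO) and 10 photosystem II genes (PSBO1 to PSBY). The deposited table held 30509 genes and 41 of the 42 loci, while LHCB1.2 (AT1G29910) was not analysed here. Before germination at 22°C in constant white light, all seeds were kept at 4°C for 72 h to break dormancy. The DT (desiccation-tolerant) seeds were then incubated in the dark for 3 d in polyethylene glycol (PEG), an osmoticum that withdraws water, at -2.5 MPa, whereas the DS (desiccation-sensitive) seeds were collected at the same stage, with the radicle emerging, and received no treatment. Each group had 3 biological replicates of pooled whole germinated seeds, with 1 tiling array each. Darkness and the extra 3 d accompanied PEG in every DT sample, so that PEG, darkness and time cannot be told apart.

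Light-harvesting complex (LHC) proteins bind chlorophyll and carotenoids and pass excitation energy to the reaction centres of photosystem I (PSI) and photosystem II (PSII). LHCA proteins form the antenna belt of PSI. LHCB1, LHCB2 and LHCB3 build the trimeric LHCII, and LHCB4, LHCB5 and LHCB6 are the monomeric antennae that link LHCII to the PSII core. The chlorophyll-binding reaction centre proteins are encoded in the plastid, and the nucleus supplies the antennae and many of the smaller subunits. In angiosperms these nuclear genes are induced by light as the cotyledons green after germination.

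Values are the deposited log2 signals. A difference is the DT mean minus the DS mean, so a negative value means a lower signal in DT. A gene was called when this log2 fold change was at least 1 in size with an unadjusted p of at most 0.05 in limma, and it passed the adjusted test when the Benjamini-Hochberg adjusted p over all 30509 genes was at most 0.05. Adjusted p-values below come from that limma fit unless another setting or test is named beside them. Those of limma measure the spread between samples labelled biological replicates. As a guide to dim genes, the 95th percentile of the mean signal of 2862 annotated pseudogenes was taken as a background level. It was 4.93, and 63.3% of all genes had a mean below it.

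The 6 arrays were similar in scale. The median log2 signal over all genes was 4.72 to 4.73 on the DT arrays and 4.76 to 4.78 on the DS arrays. Correlations between arrays across genes were 0.957 to 0.975 within DT, 0.972 to 0.977 within DS and 0.798 to 0.819 between the groups. Of the markers of cell types that the samples could hold, the 4 storage reserve genes of the embryo (CRA1, CRU3, OLEO1 and OLEO2) were all called higher in DT, with log2 fold changes of 3.27 to 4.2. Of the endosperm markers, EXPA2 had signals of 7.58 to 7.98 in DT and 7.12 to 7.51 in DS (log2 fold change 0.54, adjusted p = 0.0152) and EPR1 had 5.35 to 5.81 in DT and 5.22 to 5.48 in DS (adjusted p = 0.404). The root hair genes RSL1, EXPA7 and COBL9 were below the background level on all 6 arrays, while RHD6 averaged 4.96 in DT and 5.22 in DS (log2 fold change -0.25, adjusted p = 0.0474). What part these tissue markers had in the photosystem results was not tested. In RNA of whole seeds, fewer green cells and less RNA per cell cannot be told apart.

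Antenna and photosystem transcripts were lower in DT. Of the 41 measured genes, 40 (97.6%) had a lower mean in DT, against 55.8% of all genes, and the median log2 fold change was -0.66, against -0.02 over all genes. The adjusted test was passed by 34 genes (82.9%), all of them lower in DT, whereas 19.9% of all genes passed it as lower and 9.97% as higher. With the further demand of a 2-fold difference, 12 genes (29.3%) were called lower, against 1.36% of all genes, and 0 were called higher, against 0.862% of all genes. In 33 genes (80.5%) the 3 DT arrays all lay below the 3 DS arrays, which held for 27% of all genes. Because many genes were dim, the 11500 genes with a DS mean above background were also counted. Of these, 7875 had a lower mean in DT, and 5047 passed the adjusted test as lower and 1692 as higher. In 5858 of them the 3 DT arrays all lay below the 3 DS arrays, and 415 were called lower and 145 higher. Their median log2 fold change was -0.14, and the shares lower in DT were larger among them than over all genes. This set was chosen by its DS signal, which favours genes lower in DT. Among the 41 measured genes, LHCB1.4 was the one with a higher mean in DT, by 0.07, and its arrays overlapped. In 9 of the 41 genes all 3 DT arrays were below background, against 18734 of all 30509 genes, so the fold changes of these 9 are uncertain in size. When quantile normalization was repeated on the gene values, 7 genes were called lower (LHCB3, PSAE1, PSAG, PSAO and PSBO2 were not), and LHCB1.1, PSAH1 and PSBR also had a higher mean in DT, by 0.0182, 0.0785 and 0.0058 on the log2 scale.

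**Figure D1:**
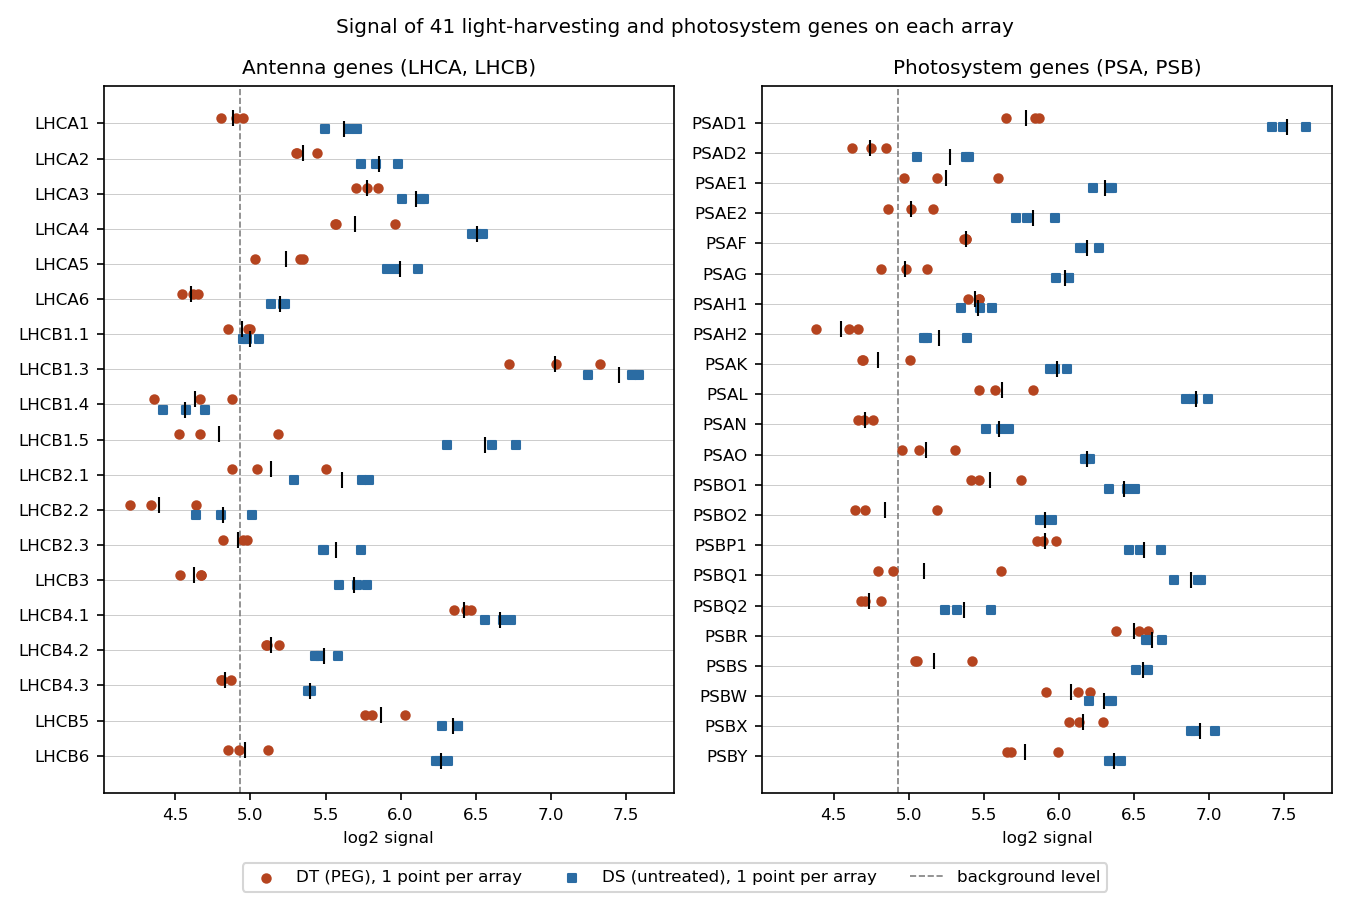
Log2 signal (horizontal axis) of the 41 measured genes on each array, antenna genes at left and photosystem genes at right, with DT as circles above DS as squares in each row, short black lines for group means and a dashed line for the background level of 4.93. DT points lie left of DS points in 33 rows, and the 8 rows with overlap are LHCB1.1, LHCB1.3, LHCB1.4, LHCB2.1, LHCB2.2, PSAH1, PSBR and PSBW.

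The 6 largest falls came from both photosystems and from the antenna. PSBQ1 (AT4G21280, chr4:11334352-11335815 in the TAIR10.1 assembly), an extrinsic protein on the lumenal side of the oxygen-evolving complex of PSII, had log2 signals of 5.62, 4.90 and 4.80 on the DT arrays and 6.77, 6.92 and 6.95 on the DS arrays. Its mean was 5.10 ± 0.45 in DT and 6.88 ± 0.10 in DS (SD, n = 3 each), a 3.43-fold lower signal (log2 fold change -1.78, SE 0.195, adjusted p = 0.00029). All DT values were below all DS values, but DT replicate 1 stood well above the other two DT arrays, which were below the background level. LHCB1.5 (AT2G34420, chr2:14522524-14523568), one of the genes for the main LHCII protein, gave 5.18, 4.67 and 4.53 in DT and 6.31, 6.77 and 6.61 in DS. This was 3.42-fold lower in DT (log2 fold change -1.77, SE 0.178, adjusted p = 0.000183), again with DT replicate 1 highest and the other two DT arrays below background. PSAD1 (AT4G02770, chr4:1229031-1230164), a stromal subunit at the ferredoxin docking site of PSI, gave 5.87, 5.65 and 5.84 in DT and 7.42, 7.49 and 7.65 in DS. It was 3.33-fold lower in DT (log2 fold change -1.74, SE 0.0808, adjusted p = 4.3e-06) and was above background on every array of both groups. In the order of all 30509 genes from the most negative log2 fold change, these 3 genes took places 60, 62 and 64.

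PSBS (AT1G44575, chr1:16870221-16873427) encodes the protein that switches PSII antennae into heat dissipation under excess light. It gave 5.42, 5.04 and 5.05 in DT and 6.51, 6.59 and 6.59 in DS, which was 2.63-fold lower in DT (log2 fold change -1.39, SE 0.1, adjusted p = 3.27e-05). LHCB6 (AT1G15820, chr1:5446462-5447880), the monomeric antenna CP24, gave 5.12, 4.85 and 4.92 in DT and 6.26, 6.32 and 6.24 in DS, a 2.48-fold lower signal (log2 fold change -1.31, SE 0.0723, adjusted p = 9.39e-06). The 3 DS values of LHCB6 lay within a narrow range, and 2 of its DT values fell below background. PSAL (AT4G12800, chr4:7521257-7522761), a membrane subunit of PSI near the docking side of LHCII, gave 5.83, 5.57 and 5.46 in DT and 6.85, 6.99 and 6.89 in DS, which was 2.44-fold lower in DT (log2 fold change -1.29, SE 0.0927, adjusted p = 3.26e-05). PSAL stayed above background on every array.

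Among the PSI antenna genes, all 6 LHCA genes passed the adjusted test as lower in DT, beside 19.9% of all genes. In all 6 the DT arrays lay below the DS arrays, beside 27% of all genes. Of the 6, 0 reached the 2-fold difference, beside 1.36% of all genes called lower. These shares of all genes are also the reference for the class counts below. The log2 fold changes of the LHCA genes ranged from -0.81 to -0.33 with a median of -0.66. LHCA4, which pairs with LHCA1 in the antenna belt, had the largest fall, with signals of 5.96, 5.57 and 5.57 in DT and 6.47, 6.55 and 6.51 in DS (log2 fold change -0.81, adjusted p = 0.000637). LHCA1 averaged 4.89 ± 0.07 in DT, with 2 DT arrays below background, and 5.62 ± 0.11 in DS (SD, n = 3 each, log2 fold change -0.74, adjusted p = 0.000122). LHCA2 and LHCA3, the other major pair of the belt, had log2 fold changes of -0.50 (adjusted p = 0.00132) and -0.33 (adjusted p = 0.00467). LHCA5 and LHCA6 are scarce antenna proteins that in Arabidopsis attach PSI to the chloroplast NADH dehydrogenase-like complex. They fell by 0.76 and 0.59 on the log2 scale (adjusted p = 0.000577 and 8.58e-05), and LHCA6 was below background on all 3 DT arrays.

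The 8 measured genes of the major LHCII had a wider range of log2 fold changes, -1.77 to 0.07. Of these, 4 passed the adjusted test as lower in DT, 2 of them were called, and 5 had overlapping arrays. LHCB3, the LHCII subunit found only in trimers with LHCB1 and LHCB2, gave 4.67, 4.53 and 4.67 in DT and 5.59, 5.78 and 5.71 in DS (log2 fold change -1.07, adjusted p = 1.55e-05). All 3 DT values were below background and well apart from the DS values. LHCB2.3 fell by 0.66 on the log2 scale (adjusted p = 0.00053), with 4.98, 4.95 and 4.82 in DT and 5.49, 5.74 and 5.48 in DS. LHCB2.2 also passed, with 4.34, 4.64 and 4.2 in DT and 5.01, 4.80 and 4.64 in DS (log2 fold change -0.43, adjusted p = 0.0394), but its highest DT value equalled its lowest DS value at 2 decimals and it did not pass when arrays were centred on their medians (adjusted p = 0.0643) or when any of DT replicates 1 and 3 or DS replicates 1 and 2 was left out (0.0912 to 0.122).

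The remaining 4 LHCII genes did not pass. LHCB1.3 had 7.33, 7.03 and 6.72 in DT and 7.25, 7.59 and 7.54 in DS, a log2 fold change of -0.43 with a 95% interval of -0.78 to -0.07 (adjusted p = 0.073). DT replicate 1 was above the lowest DS array, and without that replicate the log2 fold change was -0.58 (adjusted p = 0.0143). LHCB2.1 had 4.88, 5.50 and 5.04 in DT and 5.29, 5.79 and 5.74 in DS, a log2 fold change of -0.47 with an interval of -0.89 to -0.04 (adjusted p = 0.0981). Its adjusted p was 0.0198 without DT replicate 2 and 0.0358 without DS replicate 1. LHCB1.1 had 4.98, 4.85 and 5.0 in DT and 5.06, 4.98 and 4.95 in DS, a log2 fold change of -0.05 with an interval of -0.19 to 0.08 (adjusted p = 0.589). LHCB1.4 (AT2G34430, chr2:14524607-14525918) had 4.88, 4.35 and 4.66 in DT and 4.42, 4.57 and 4.70 in DS, all below background, with a log2 fold change of 0.07 (interval -0.23 to 0.37, adjusted p = 0.764). LHCB1.1 and LHCB1.4 thus lay near or below the background level in both groups.

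Members of the LHCB1 and LHCB2 families are close copies. Of all 25-base words in the annotated transcripts, a word length equal to that of the array's probes, LHCB1.1 shared 37.1%, LHCB1.3 39.5%, LHCB1.4 26.8%, LHCB1.5 35.7%, LHCB2.1 35.6% and LHCB2.2 43.5% with other genes. LHCA2 shared 17.3%, with 17.2% shared with AT5G28450, and LHCB2.3 shared 1.87%. Of the 42 genes, 34 shared under 5%. The probes behind each deposited value were not analysed here. The values of LHCB1.1, LHCB1.3, LHCB1.4, LHCB1.5, LHCB2.1, LHCB2.2 and, with a smaller shared part, LHCA2 are therefore uncertain as values of single genes.

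All 5 genes of the monomeric PSII antennae passed the adjusted test as lower in DT, each with separate arrays. Apart from LHCB6, described above, their log2 fold changes were moderate. LHCB4.3, the third CP29 gene, varied little between replicates, with 4.81, 4.81 and 4.87 in DT and 5.39, 5.40 and 5.38 in DS (log2 fold change -0.57, adjusted p = 4.66e-05). All 3 of its DT arrays were below background, so the size of its fall is uncertain. LHCB4.1 gave 6.47, 6.36 and 6.44 in DT and 6.56, 6.68 and 6.73 in DS (log2 fold change -0.24, adjusted p = 0.0175), and LHCB4.2 gave 5.19, 5.11 and 5.11 in DT and 5.46, 5.58 and 5.43 in DS (log2 fold change -0.35, adjusted p = 0.00198). LHCB5, or CP26, fell by 0.48 on the log2 scale (adjusted p = 0.00206). LHCB4.1 had the largest adjusted p of these and did not pass without DT replicate 2 (adjusted p = 0.0643), without DS replicate 2 (0.0627) and without DS replicate 3 (0.0637).

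**Figure D2:**
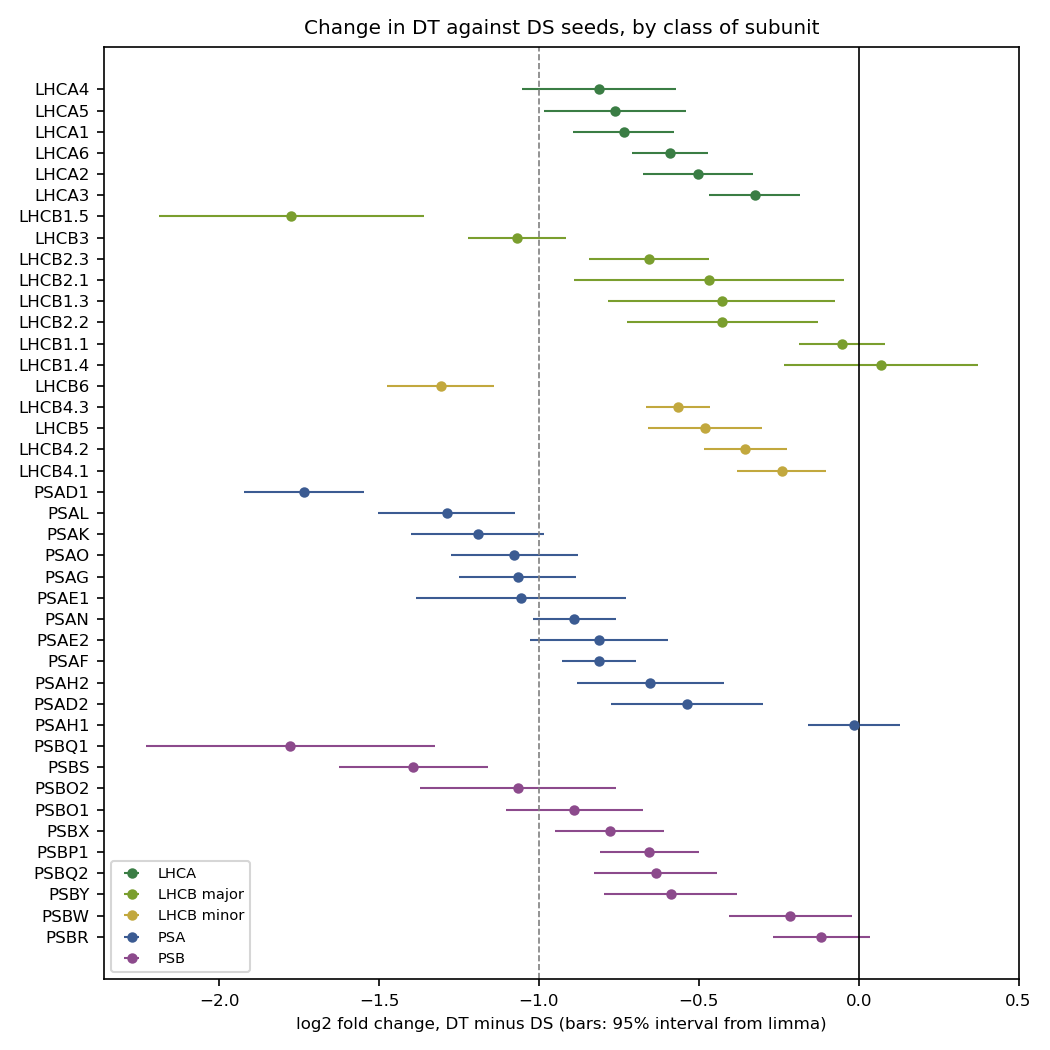
Log2 fold change of each measured gene, DT minus DS, with its 95% interval from limma, grouped and coloured by class, with a dashed line at -1. Every LHCA and LHCB4 to LHCB6 interval lies below 0, the LHCB1 and LHCB2 genes spread from -1.77 to 0.07, and PSBQ1 and PSAD1 lie at -1.78 and -1.74.

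Of the 12 PSI subunit genes, 11 passed the adjusted test as lower in DT and 6 were called. Their median was -0.97. The stromal ridge subunits PSAD and PSAE, which with the plastid-encoded PsaC form the ferredoxin docking side of PSI, are each encoded by a pair of genes. All 4 genes were lower. PSAE1 gave 5.60, 5.19 and 4.97 in DT and 6.35, 6.23 and 6.34 in DS (log2 fold change -1.06, adjusted p = 0.0008), and PSAE2 gave 4.86, 5.01 and 5.16 in DT and 5.71, 5.79 and 5.98 in DS (log2 fold change -0.81, adjusted p = 0.000354). On the lumenal side, PSAF and PSAN help plastocyanin to dock. PSAF was nearly constant within DT, at 5.38, 5.38 and 5.37, against 6.27, 6.16 and 6.14 in DS (log2 fold change -0.81, adjusted p = 1.55e-05), and PSAN fell by 0.89 (adjusted p = 1.78e-05) with all 3 DT arrays below background. The membrane subunits PSAG and PSAK, which flank the antenna belt, were called at -1.07 (adjusted p = 3.67e-05) and -1.19 (adjusted p = 4e-05). Below background were 1 DT array of PSAG and 2 DT arrays of PSAK. PSAO, which takes part in binding LHCII during state transitions, was called at -1.08 (adjusted p = 5.51e-05). PSAG and PSAO were not called with repeated quantile normalization or without DT replicate 2, and PSAE1 was not called with repeated quantile normalization or without DT replicate 3.

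PSAH1 (AT3G16140, chr3:5467987-5469594) was the exception in PSI. PSAH is needed for LHCII to bind PSI in state transitions. PSAH1 gave 5.47, 5.47 and 5.39 in DT and 5.35, 5.47 and 5.56 in DS, a log2 fold change of -0.02 with an interval of -0.16 to 0.13 (adjusted p = 0.893). The DT and DS arrays overlapped entirely and were all above background. Its paralog PSAH2 (AT1G52230, chr1:19454798-19455668) gave 4.60, 4.66 and 4.38 in DT and 5.12, 5.10 and 5.39 in DS (log2 fold change -0.65, adjusted p = 0.00155), with all 3 DT arrays below background.

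Among the 10 PSII genes, 8 passed the adjusted test as lower in DT and 3 were called. Their median was -0.72. The 5 genes of the extrinsic oxygen-evolving proteins all passed, with a median of -0.89. PSBO1, the main form of the manganese-stabilising protein, gave 5.75, 5.41 and 5.47 in DT and 6.34, 6.46 and 6.50 in DS (log2 fold change -0.89, adjusted p = 0.000212). Its second form PSBO2 gave 5.19, 4.64 and 4.71 in DT and 5.87, 5.90 and 5.96 in DS (log2 fold change -1.06, adjusted p = 0.000538), with 2 DT arrays below background. PSBP1 differed by -0.66 on the log2 scale (adjusted p = 0.000197). PSBQ2 (AT4G05180, chr4:2671523-2673243), the paralog of PSBQ1, gave 4.68, 4.71 and 4.81 in DT and 5.24, 5.32 and 5.55 in DS (log2 fold change -0.63, adjusted p = 0.000701).

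The other PSII genes were mixed. PSBR (AT1G79040, chr1:29735952-29737009), which supports the assembly of the oxygen-evolving proteins, gave 6.38, 6.59 and 6.53 in DT and 6.58, 6.69 and 6.59 in DS, a log2 fold change of -0.12 with an interval of -0.27 to 0.03 (adjusted p = 0.242). PSBW, a small membrane subunit, gave 5.92, 6.13 and 6.21 in DT and 6.34, 6.20 and 6.35 in DS (log2 fold change -0.21, adjusted p = 0.0966). In both genes one or more DT arrays reached into the DS range while every array was above background. The small membrane subunits PSBX and PSBY did pass, with log2 fold changes of -0.78 (adjusted p = 0.000126) and -0.59 (adjusted p = 0.0016).

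The antenna was compared with the photosystem subunits, called core here although it holds only nuclear-encoded subunits. The median log2 fold change was -0.50 over the 19 antenna genes, of which 15 passed the adjusted test and 3 were called, and -0.85 over the 22 core genes, of which 19 passed and 9 were called. On each array the mean deviation of a group from its genes' DS means was taken. It was -0.52, -0.63 and -0.66 for antenna genes on the DT arrays and -0.08, 0.06 and 0.02 on the DS arrays. For core genes it was -0.77, -0.94 and -0.91 on the DT arrays and -0.05, -0.01 and 0.06 on the DS arrays. Antenna minus core was thus 0.25, 0.30 and 0.26 in DT and -0.04, 0.07 and -0.03 in DS, a difference of 0.27 that exceeded the spread between arrays (SD 0.03 in DT and 0.06 in DS). No p is given for it, since the genes were not chosen independently of these data.

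The size of that gap depended on dim genes and on the LHCII copies. It was 0.23 without the LHCB1 and LHCB2 genes, and 0.16 over the 24 genes (9 antenna, 15 core) with a mean at least 0.5 above the background level. The gap had the same sign within both photosystems, at 0.31 for LHCA minus PSA and 0.22 for LHCB minus PSB.

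**Figure D3:**
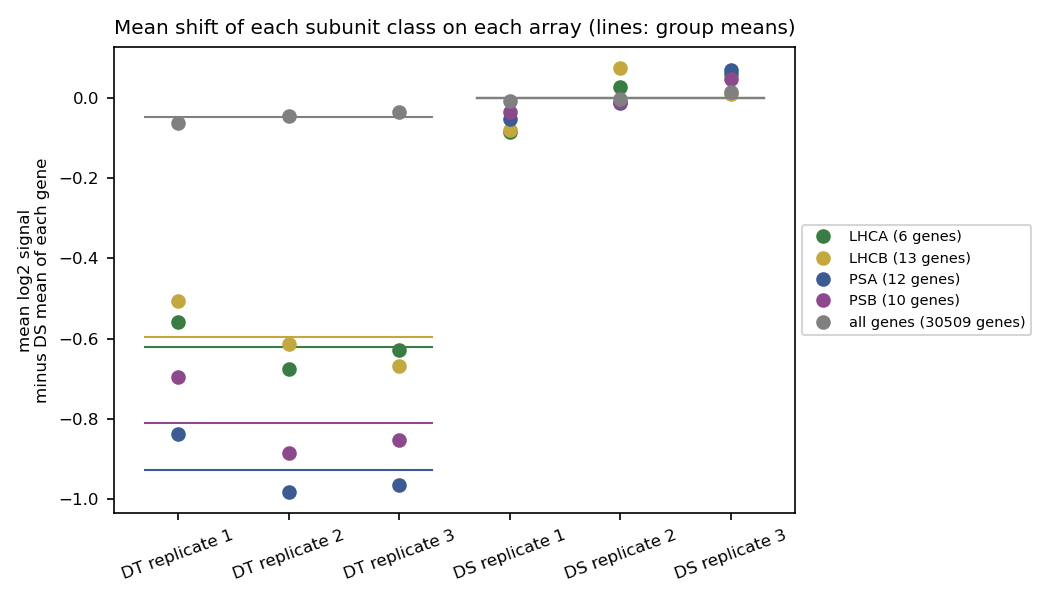
Mean deviation from the genes' DS means (log2 scale) of the LHCA, LHCB, PSA and PSB genes and of all genes on each DT array (left) and DS array (right), with 1 colour per class and lines for group means. On the DT arrays LHCA lies at -0.56 to -0.68, LHCB at -0.51 to -0.67, PSA at -0.84 to -0.98, PSB at -0.70 to -0.88 and all genes at -0.04 to -0.06.

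The difference between the photosystems was smaller. The median log2 fold change was -0.81 over the 18 PSI genes (LHCA and PSA), of which 17 passed the adjusted test, and -0.59 over the 23 measured PSII genes (LHCB and PSB), of which 17 passed; 6 genes of each were called. PSI minus PSII was -0.16, -0.15 and -0.10 on the DT arrays and -0.00, -0.04 and 0.04 on the DS arrays, a difference of -0.14. It was -0.07 without LHCB1 and LHCB2 genes and -0.04 over the genes at least 0.5 above background. LHCA minus LHCB changed by -0.02 only, with -0.05, -0.06 and 0.04 in DT and -0.00, -0.05 and 0.05 in DS, which was within the spread between arrays, whereas PSA minus PSB changed by -0.12.

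Replicates were less alike in DT than in DS for these genes. The median SD was 0.144 in DT and 0.0872 in DS, against 0.0701 in DT and 0.0616 in DS over all genes. DT replicate 1 was the highest DT array in 23 of the 41 genes (56.1%), against 30% of all genes and 26% of the 6085 genes that passed the adjusted test as lower. Its median offset from the mean of the other two DT arrays was 0.0947 over the 41 genes and -0.0242 over all genes. Without DT replicate 1 the same 12 genes were called. The number that passed the adjusted test was again 34, but LHCB1.3 now passed (adjusted p = 0.0143) and LHCB2.2 did not (adjusted p = 0.0979).

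Genes that encode the same subunit were compared with each other. For 9 pairs the log2 difference between both genes was taken within each array and is given relative to its DS mean, which leaves the levels of the genes uncompared. PSAD1 minus PSAD2 lay at -1.12, -1.22 and -1.25 on the DT arrays and 0.13, -0.15 and 0.03 on the DS arrays, a change of -1.20. PSAD2 itself gave 4.75, 4.62 and 4.85 in DT and 5.05, 5.40 and 5.38 in DS (log2 fold change -0.54, adjusted p = 0.00486). PSBQ1 minus PSBQ2 lay at -0.58, -1.32 and -1.53 in DT and 0.02, 0.09 and -0.11 in DS, a change of -1.14. PSAH1 minus PSAH2 lay at 0.61, 0.55 and 0.75 in DT and -0.03, 0.12 and -0.09 in DS, a change of 0.64. In these pairs, and in LHCB4.1 minus LHCB4.3 (change 0.32), the DT and DS arrays did not overlap. That gave an exact permutation p of 0.1 (two-sided) for each of the 4 pairs, which is the smallest that 3 arrays against 3 can give, and 0.225 after adjustment over the 9 pairs.

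The other 5 pairs overlapped. Their changes were -0.24 for PSAE1 minus PSAE2 (exact p = 0.5), 0.17 for PSBO1 minus PSBO2 (exact p = 0.2), 0.11 for LHCB4.1 minus LHCB4.2 (exact p = 0.3), -0.04 for LHCB2.1 minus LHCB2.2 (exact p = 1) and 0.19 for LHCB2.1 minus LHCB2.3 (exact p = 0.5). In PSAD2, PSAH2, PSBQ2 and LHCB4.3 all 3 DT arrays were below background, as were 2 DT arrays of PSBQ1. The sizes of these falls, and of the pair changes that contain them, are therefore uncertain, and no difference between paralogs is drawn from them. PSAD1, PSAD2, PSAH1, PSAH2, PSBQ1 and PSBQ2 each shared under 2% of their 25-base words with other genes, and the coding sequences were 86.3% identical between the PSAD genes, 87% between the PSAH genes and 76.3% between the PSBQ genes.

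**Figure D4:**
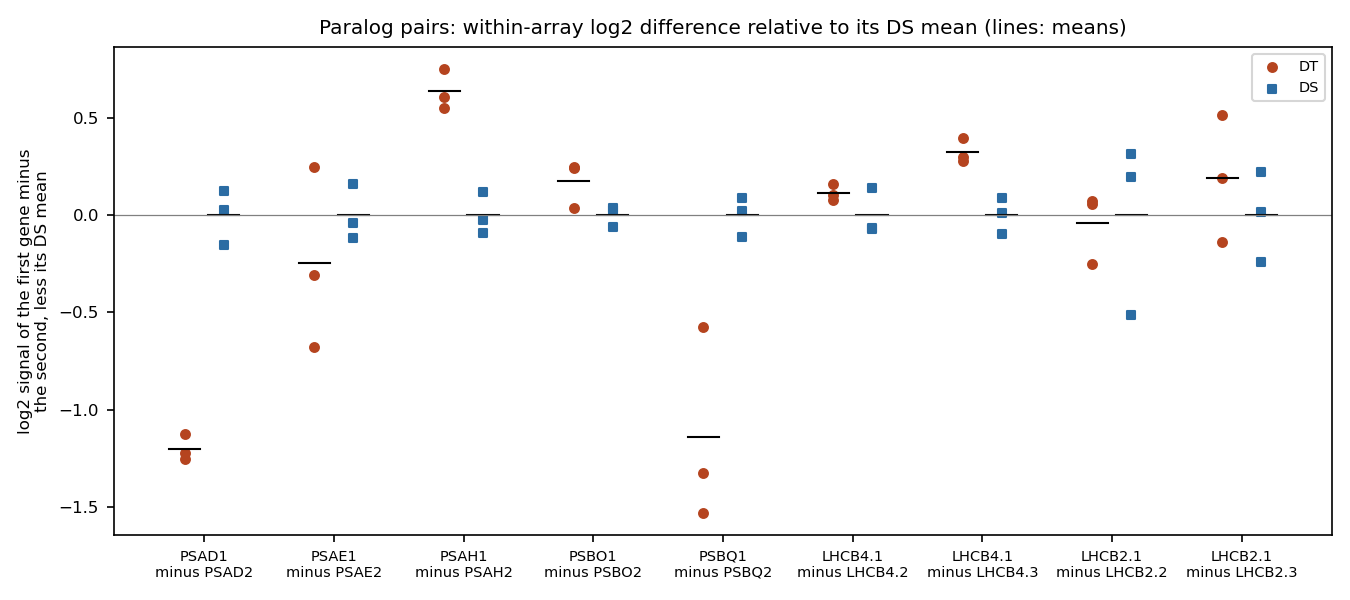
Within-array log2 difference of 9 paralog pairs relative to its DS mean, with DT as circles left of DS as squares and lines for group means. DT and DS points are apart for PSAD1 minus PSAD2, PSAH1 minus PSAH2, PSBQ1 minus PSBQ2 and LHCB4.1 minus LHCB4.3.

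The bases upstream of some paralogs are shown as description. PSBQ2, PSAH2 and PSAD2 were below background on all 3 DT arrays, so the sizes of their falls are uncertain. Whether any motif bears on the change of its gene was not tested. They are the 150 bases before the annotated transcript start in TAIR10.1 (RefSeq annotation), 5′ to 3′ on the strand of the gene, and capitals mark matches on either strand to the G-box CACGTG, the I-box GATAAG, the GLK factor site CCAATC, the GT1 site GGTTAA or the core of the abscisic acid response element (ABRE), ACGTGNC, which overlaps a G-box where the letters allow. The PSBQ pair, of which PSBQ1 fell by 1.78 and PSBQ2 by 0.63 on the log2 scale, comes from chr4:11334202-11334351 (plus strand) and chr4:2673244-2673393 (minus strand). In both genes G-box matches lie within these bases.
PSBQ1: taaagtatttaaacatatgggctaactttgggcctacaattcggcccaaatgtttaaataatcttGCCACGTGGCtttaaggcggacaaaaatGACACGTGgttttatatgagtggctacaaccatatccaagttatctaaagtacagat
PSBQ2: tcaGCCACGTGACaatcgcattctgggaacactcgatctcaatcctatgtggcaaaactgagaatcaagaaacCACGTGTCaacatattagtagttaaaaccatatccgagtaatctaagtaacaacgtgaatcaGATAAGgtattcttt

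The PSAH pair is the one in which PSAH1 had a log2 fold change of -0.02 and PSAH2 fell by 0.65. The windows are chr3:5469595-5469744 (minus strand) and chr1:19454648-19454797 (plus strand). That of PSAH2 holds matches, and that of PSAH1 holds none in these 150 bases, although a G-box, an I-box and an ABRE core match of PSAH1 lie elsewhere between 250 bases before and 50 bases after its start.
PSAH1: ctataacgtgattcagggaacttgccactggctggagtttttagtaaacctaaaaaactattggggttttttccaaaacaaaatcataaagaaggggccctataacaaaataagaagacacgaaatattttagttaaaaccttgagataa
PSAH2: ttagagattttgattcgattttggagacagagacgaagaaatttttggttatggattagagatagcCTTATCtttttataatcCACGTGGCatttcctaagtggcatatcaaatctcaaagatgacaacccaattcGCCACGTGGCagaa

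In the PSAD pair PSAD1 fell by 1.74 and PSAD2 by 0.54 on the log2 scale. The windows, chr4:1230165-1230314 (minus strand) and chr1:754263-754412 (minus strand), hold no match to the 5 motifs, although each gene has an I-box match elsewhere in the same longer stretch.
PSAD1: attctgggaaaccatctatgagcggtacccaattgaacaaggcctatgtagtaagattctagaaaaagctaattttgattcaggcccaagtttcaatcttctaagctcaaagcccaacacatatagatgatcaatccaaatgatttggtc
PSAD2: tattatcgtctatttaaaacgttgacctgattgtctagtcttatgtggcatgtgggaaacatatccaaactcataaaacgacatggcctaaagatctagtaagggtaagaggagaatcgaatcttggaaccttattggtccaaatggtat

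LHCB1.5 and LHCB1.4 are neighbours on chromosome 2, transcribed away from each other with 1038 bases between them, and their coding sequences were 91.4% identical. LHCB1.5 fell by 1.77 on the log2 scale, while LHCB1.4 was below background on all 6 arrays. The windows are chr2:14523569-14523718 (minus strand) and chr2:14524457-14524606 (plus strand). A CCAATC match lies in front of LHCB1.5 and an ABRE core match, read on the other strand, in front of LHCB1.4.
LHCB1.5: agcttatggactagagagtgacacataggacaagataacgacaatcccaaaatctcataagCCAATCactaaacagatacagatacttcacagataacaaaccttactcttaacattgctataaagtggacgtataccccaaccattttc
LHCB1.4: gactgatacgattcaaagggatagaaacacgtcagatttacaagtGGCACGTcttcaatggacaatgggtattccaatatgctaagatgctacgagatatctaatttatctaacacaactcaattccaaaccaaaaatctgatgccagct

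Over the longer window from 250 bases before to 50 bases after the start, the 41 genes held several of these motifs more often than the 25955 protein-coding genes of the table. A G-box was found in 14 genes (34.1%, against 7.89% of all), an I-box in 17 (41.5%, against 14.6%), CCAATC in 15 (36.6%, against 12.3%) and the ABRE core in 18 (43.9%, against 10.5%). GGTTAA was found in 7 (17.1%, against 16.8%). By class, the ABRE core was found in 42.1% of the antenna genes and 45.5% of the core genes, and GGTTAA in 10.5% of the antenna and 22.7% of the core genes. CCAATC was found in 57.9% of the antenna genes and 18.2% of the core genes, while a G-box was found in 21.1% of the antenna and 45.5% of the core genes and an I-box in 31.6% of the antenna and 50% of the core genes. Between the 12 genes called lower and the 29 that were not, a G-box was found in 33.3% and 34.5%, an I-box in 50% and 37.9%, CCAATC in 25% and 41.4%, the ABRE core in 33.3% and 48.3%, and GGTTAA in 8.33% and 20.7%. These shares describe letters in a window and were not tested.

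Genes that work with the photosystems were read as further lists. Of 18 nuclear genes for electron transport and thylakoid function, 12 passed the adjusted test as lower in DT and 1 as higher, beside 19.9% and 9.97% of all genes. The other 5 did not pass. Of the 18, 5 were called lower, beside 1.36% of all genes. The median of the 18 was -0.55 on the log2 scale. The called genes were both ferredoxins, which accept electrons from PSI, a plastocyanin, which donates them, and 2 subunits of the chloroplast ATP synthase. FD2 gave 6.39, 6.36 and 6.41 in DT and 8.02, 7.79 and 7.85 in DS (log2 fold change -1.50, adjusted p = 3.05e-06), and FD1 gave 6.27, 5.69 and 5.86 in DT and 7.52, 7.39 and 7.30 in DS (log2 fold change -1.46, adjusted p = 0.000134). PETE2, plastocyanin, gave 5.95, 5.55 and 5.71 in DT and 6.93, 6.97 and 6.98 in DS (log2 fold change -1.22, adjusted p = 4.12e-05). ATPD, the delta subunit, had the largest fall of the list, with 5.16, 5.38 and 5.36 in DT and 6.93, 6.88 and 7.04 in DS (log2 fold change -1.65, adjusted p = 3.49e-06), and ATPC1, the gamma subunit, gave 5.40, 5.42 and 5.51 in DT and 6.64, 6.72 and 6.78 in DS (log2 fold change -1.27, adjusted p = 3.26e-06). Over the whole list, the 3 DT arrays all lay below the 3 DS arrays in 15 of the 18 genes, beside 27% of all genes.

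The 5 genes that did not pass were regulators and single components. PETC, the Rieske protein of the cytochrome b6f complex, was at -0.07 on the log2 scale (adjusted p = 0.446), and the kinases STN7 and STN8, which phosphorylate LHCII and PSII proteins, had -0.07 (adjusted p = 0.33) and -0.18 (adjusted p = 0.0557). CURT1A, which curves thylakoid membranes, had -0.09 (adjusted p = 0.174) and PGRL1B, of cyclic electron flow, 0.08 (adjusted p = 0.273). TAP38, the phosphatase that opposes STN7 at LHCII, was the 1 gene that rose, with 5.46, 5.69 and 5.60 in DT and 5.22, 5.31 and 5.38 in DS (log2 fold change 0.28, adjusted p = 0.0197), and it did not pass when any of DT replicates 2 and 3 or DS replicates 1 and 2 was left out.

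Of 13 genes for regulators, protein insertion and photosystem assembly, 7 passed as lower in DT and 1 as higher, beside 19.9% and 9.97% of all genes. Of the 13, 0 were called, beside 1.36% of all genes called lower and 0.862% called higher. The median of the 13 was -0.25. LTD, which guides LHC proteins to the chloroplast signal recognition particle, had the largest fall of this list, with 6.01, 6.28 and 6.17 in DT and 7.07, 7.09 and 7.15 in DS (log2 fold change -0.95, adjusted p = 4.13e-05). The particle's own subunits differed, with cpSRP43, which is specific to LHC proteins, at -0.59 (adjusted p = 0.000104) and cpSRP54 at 0.03 (adjusted p = 0.816). ALB3, the insertase that places LHC proteins in the thylakoid, rose, with 6.63, 6.77 and 6.73 in DT and 6.28, 6.41 and 6.38 in DS (log2 fold change 0.35, adjusted p = 0.0023). The transcription factors GLK1 and GLK2, which activate many antenna genes, had log2 fold changes of -0.13 (adjusted p = 0.11) and -0.20 (adjusted p = 0.00985), and of these GLK2 passed. The plastid-encoded reaction centre genes were not analysed here.

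**Figure D5:**
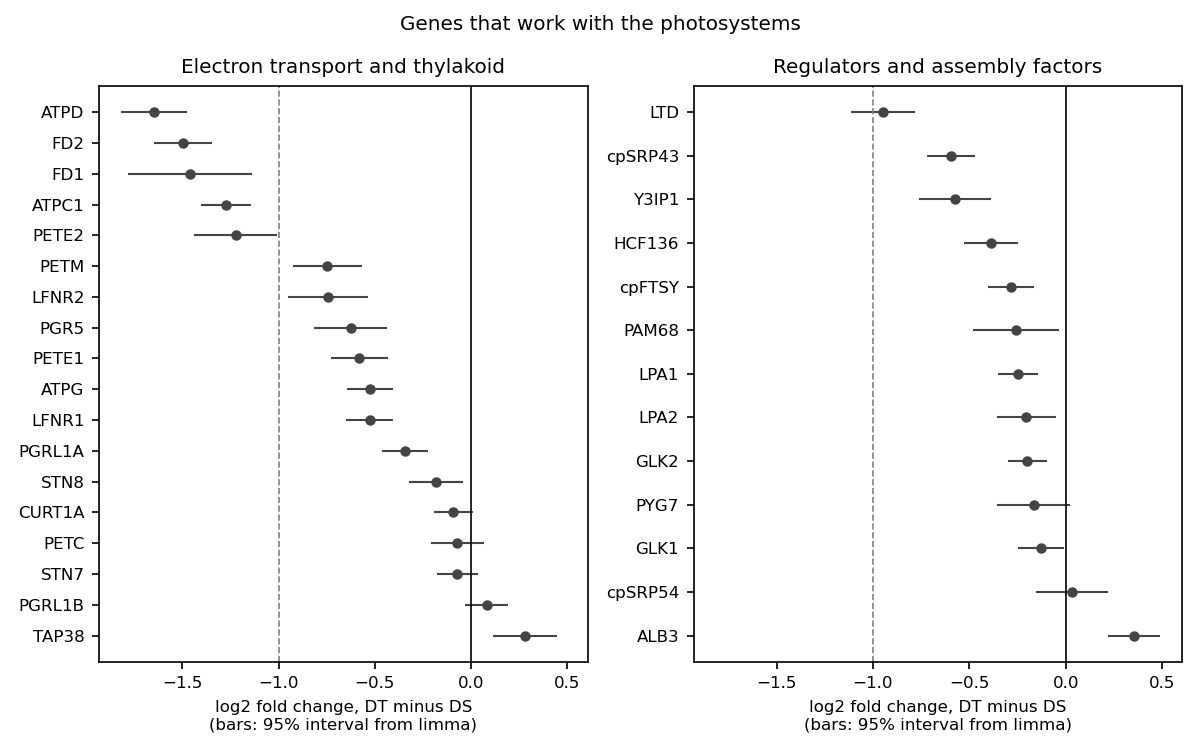
Log2 fold change, DT minus DS, with its 95% interval from limma, of the genes for electron transport and thylakoid function (left) and of the regulators and assembly factors (right), with a dashed line at -1. ATPD at -1.65 and LTD at -0.95 lie lowest, and the intervals of TAP38 and ALB3 lie above 0.

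Since the DT seeds had been kept in the dark, 8 genes known as induced by darkness in Arabidopsis leaves were read beside these lists. Of these, 1 passed as higher in DT, 2 passed as lower and 5 did not pass, beside 9.97% of all genes that passed as higher and 19.9% as lower. The median of the 8 was -0.01. Most of these genes were dim: 5 of the 8 were below background on all 3 DT arrays and 4 on all 3 DS arrays. DIN2, DIN3 and DIN11 were below it on all 6 arrays, so a lack of change cannot be read from them. SEN1, by contrast, was above background on all 6 arrays and averaged 5.97 in both groups. Its arrays overlapped, and its DT mean was higher by only 0.001 on the log2 scale (adjusted p = 0.991). DIN4 differed by -0.17 (adjusted p = 0.053), with all 3 DT arrays and 2 DS arrays below background. DIN6, asparagine synthetase, gave 5.55, 5.45 and 5.49 in DT and 4.49, 4.59 and 4.53 in DS (log2 fold change 0.96, adjusted p = 7.16e-06). DIN10, a raffinose synthase family gene, gave 5.27, 4.74 and 4.72 in DT and 6.51, 6.57 and 6.72 in DS (log2 fold change -1.69, adjusted p = 7.42e-05). DIN9 fell by 0.46 on the log2 scale (adjusted p = 0.00153). What darkness by itself contributed to the photosystem genes was not tested, since there was no group in the dark without PEG.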

How the data were processed

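RNA of 3 DT and 3 DS samples was hybridized to Affymetrix Arabidopsis SNPtile arrays. The authors extracted signals with an R script and a TAIR9-based annotation, quantile-normalized the arrays and deposited log2 values for 30509 genes. How probes were summarised and background treated is not given in the sources used here. The number of arrays limits the precision. Groups followed the labels. DT was compared with DS over all 30509 genes with limma 3.58.1 under R 4.3.3, by lmFit followed by eBayes with 3.71 prior degrees of freedom and no covariate. The call threshold follows the study's fold and p filter, for which no test was named. The script was tested on simulated data for this comparison: of 200 genes changed by 1.5 among 30509, 200 were called, with 1 other gene. Paralog pairs were tested by exact permutation over arrays.

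Members and lists were chosen with earlier results of these data known. The text gives every array for the 6 largest falls, the 4 least falls or rises, overlapping genes and paralogs, and for other lists the called genes and the largest rise and fall. Further genes of each list were named for their function or their signal level after their values were seen. Locus identifiers were matched to RefSeq TAIR10.1 (30078 matched, 431 did not). Alternatives covered the variance model, scaling, dim genes, the call rule, near-identical and scarce genes, the replicate block and each array left out. Quantile normalization was repeated on gene values as one of them.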

Additional observations from a re-analysis of the deposited data

How the results depend on the processing

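With quantile normalization repeated, 7 genes instead of 12 were called lower (LHCB3, PSAE1, PSAG, PSAO and PSBO2 were lost), and with a log2 threshold of 0.5 there were 29. Leaving out each array gave 9 to 12 called genes (PSAG, PSAO and PSBO2 were lost without DT replicate 2, PSAE1 and PSBO2 without DT replicate 3) and 32 to 34 past the adjusted test. Of the 24 genes at least 0.5 above background, 20 passed the adjusted test; this alternative, and those of the further lists, were chosen after seeing the data. The median of antenna genes, -0.50 as reported, was -0.46 with arrays centred, -0.40 with repeated quantile normalization, -0.57 over genes above the median signal, -0.58 without LHCB1 and LHCB2, -0.47 without LHCA5, LHCA6 and LHCB4.3, -0.60 as a mean and -0.57 to -0.48 with each array left out. Repeated quantile normalization gave -0.74 for core and -0.69 for PSI genes. The PSII median, -0.59, was -0.55 centred, -0.49 with repeated quantile normalization, -0.63 over genes above the median signal, -0.64 without LHCB1 and LHCB2, -0.69 as a mean, -0.66 over genes at least 0.5 above background and -0.63 to -0.57 with each array left out. Antenna minus core, 0.27, was 0.25 to 0.31 with each array left out, 0.23 without LHCB1 and LHCB2 and 0.16 over genes at least 0.5 above background. PSI minus PSII, -0.14, was -0.0675 without LHCB1 and LHCB2 and -0.0406 over genes at least 0.5 above background. The causes were not tested. Values that changed sign were those of LHCB2.1 minus LHCB2.2 (0.0238 with repeated quantile normalization, and -0.30 to 0.12 with each array left out), LHCB1.1 (0.0182 with repeated quantile normalization), LHCB1.4 (-0.0537 to 0.21 with each array left out, negative without DT replicate 1 or DS replicate 1), PSAH1 (0.0269 centred, 0.0785 with repeated quantile normalization and -0.0703 to 0.0324 with each array left out) and PSBR (0.0058 with repeated quantile normalization); none of these passed the adjusted test. LHCB2.2 no longer passed the adjusted test when centred (adjusted p = 0.0643), with repeated quantile normalization (0.0583) and without DT replicate 1, DT replicate 3, DS replicate 1 or DS replicate 2 (0.0912 to 0.122), nor did LHCB4.1 with repeated quantile normalization (0.199). The electron transport genes past the adjusted test as higher in DT, 1 as reported, were 2 with repeated quantile normalization and 0 to 1 with each array left out. Over all genes the median log2 fold change was -0.02 as deposited, 0.02 centred and 0.01 with repeated quantile normalization.

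Same-numbered arrays did not pair, with correlations of their deviations of 0.0612, -0.0103 and 0.104, and 3 of the 6 arrays correlated best with their own number. With the replicate block, 12 genes were called lower and 35 instead of 34 passed the adjusted test, the added gene being LHCB2.1 (adjusted p = 0.0111). It also took the genes that passed as lower to 13 from 12 among electron transport genes and to 3 from 2 among dark-induced genes, and left the other counts of members and lists as reported. Of the 41 genes, 33 kept direction and side of the adjusted threshold under all alternatives run for single genes.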
